A study of Homo sapiens with 6 samples.

Results

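Transcripts of 54 protein-coding genes of the splicing machinery were followed in HepG2, a cell line established from a human liver carcinoma, after exposure to the diterpenoid oridonin. The set took every protein-coding gene with a value in the log2 FPKM table whose symbol begins with SRSF and a digit (12 genes), HNRNP (21 genes), SF3A or SF3B and a digit (9 genes), or SNRP (12 genes). These are 54 of the 13567 protein-coding genes and 18404 genes of that table, taken by name and without a further threshold on their values. The table itself holds only genes with at least 1 count in every library. One group of 3 libraries came from cells given 10 µM oridonin for 48 h, and the other group of 3 from cells given 0.1% DMSO for 48 h, both grown attached in DMEM in multi-well plates. The labels do not say whether the oridonin wells also held DMSO, or whether the 3 samples of a group came from separate cultures, so the p-values reflect how far these samples vary, and that variation may be technical.

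Pre-mRNA splicing removes introns in a large complex, the spliceosome, built from small nuclear ribonucleoproteins (snRNPs). SNRP genes encode the ring of Sm proteins shared by most spliceosomal snRNPs and proteins specific to the U1 and U2 snRNPs, and SF3A and SF3B genes encode the complexes through which U2 holds the intron's branch point. SRSF genes encode SR proteins, which bind exons and generally promote their inclusion, while hnRNP proteins coat nascent transcripts and often oppose inclusion. Many SR and hnRNP proteins limit their own transcripts by directing the splicing of exons that expose the message to nonsense-mediated decay. The deposited values count reads per gene, so such a change in transcript form was not measured here.

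The libraries held 22250202 to 30739574 counts each. HepG2 identity was checked with 9 hepatocyte genes, all detected, which summed to 15261 to 17723 CPM in the oridonin libraries and 24415 to 28389 CPM in the DMSO libraries. Abundant genes such as APOB and ALB carried these sums. In the scaled CPM used below, TTR was low, at 6.36 ± 0.702 with oridonin and 7.27 ± 0.818 with DMSO (SD, n = 3). FGB was also low and went against the sum, at 13.5 ± 0.898 CPM with oridonin and 5.78 ± 0.514 CPM with DMSO. Markers of other cell types were low but not even: 9 B cell and plasma cell genes summed to 18.7 to 62.6 CPM in the oridonin libraries and 2.92 to 15 CPM in the DMSO libraries, with MS4A1 at 0 in all 6, and 6 gut epithelial genes summed to 8.56 to 14.1 CPM in the oridonin libraries and 0.404 to 3.24 CPM in the DMSO libraries. For 5 fibroblast genes the sums were 2.6 to 5.52 CPM in the oridonin libraries and 0.315 to 2.49 CPM in the DMSO libraries, and for 4 T cell genes 2.86 to 3.65 CPM in the oridonin libraries and 1.89 to 2.59 CPM in the DMSO libraries. The part of these levels in the results on splicing genes was not tested. In bulk libraries a smaller share of cells of one kind and less RNA per cell cannot be told apart.

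After oridonin, 7 of 12 SR protein genes and 10 of 21 hnRNP genes were called lower by modest amounts, while 11 of 12 SNRP genes were not called. The shares called lower were 58.3% and 47.6%, against 21.3% of all genes tested. The hnRNP and SNRP counts changed with the scaling of libraries. All 54 genes passed the filter on low counts. Of these, 19 were called lower and 5 higher by edgeR's quasi-likelihood test at an adjusted p under 0.05, and 30 were not called. The 24 calls were 44.4% of the members, against 41.9% of the 15116 genes tested, so the share of called genes was near the background. By direction, 35.2% of members were called lower, against 21.3% of all genes tested, and 5 of 54 higher, against 20.6%. Of the 9018 abundant protein-coding genes (10 CPM or more on average), 50.9% were called, 27.4% lower and 23.4% higher, with 10.2% called at a size of at least 0.5. The median log2 fold change was -0.06 over the members and 0.01 over all genes tested, and 1 member, SRSF12, was called with a size of at least 0.5, against 14.6% of all genes tested. The direction of these counts depended on the scaling of libraries: with total counts in place of the trimmed mean of M values (TMM), 10 members were called lower and 15 higher (18.5% and 27.8%, against 15.6% and 29.7% of all genes tested with that scaling), so both shares were near the background, and the median was 0.02 over the members, beside 0.09 over all genes tested.

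**Figure D1:**
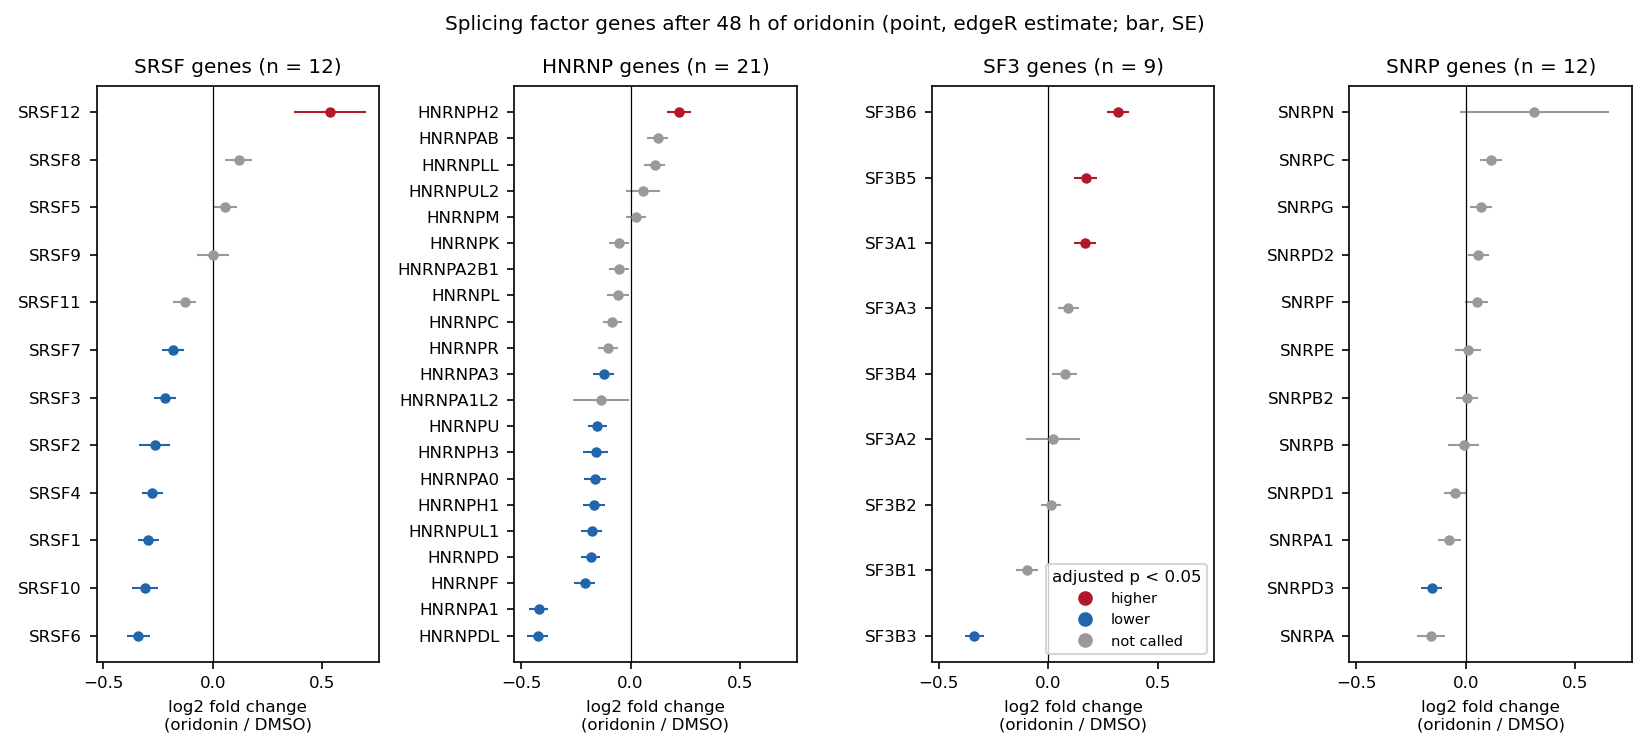
Log2 fold change of each of the 54 genes (oridonin over DMSO, horizontal axis) with its SE, in 1 panel per gene family, coloured by the edgeR call at an adjusted p under 0.05. Called genes lie at sizes of 0.12 to 0.53, with 7 of 12 SRSF and 10 of 21 HNRNP genes lower (58.3% and 47.6%, against 21.3% of all genes tested). Of the SNRP genes, 11 of 12 were not called. With total-count scaling 14.3% of HNRNP genes were lower, against 15.6% of all genes tested, and 4 SNRP genes were called, all higher.

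Groups of libraries did not overlap in 31 of the 54 members, against 51.6% of all genes tested. They overlapped in 1 called gene, SRSF2, and were apart in 8 genes that were not called. At the ends of the called decreases, HNRNPA3 fell by 8.22% and HNRNPDL fell by 25.5%. Expression was at least 10 CPM (counts scaled to a common library size with TMM factors) in DMSO in 51 members, and lower in HNRNPA1L2, SRSF12 and SNRPN.

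Among the SR proteins, 58.3% were called lower, against 21.3% of all genes tested and 27.4% of abundant protein-coding genes. In number, 7 of 12 genes fell and 1 rose, with a median log2 fold change of -0.20. Of these 7, 6 belong to the 8 classical SR proteins, for which the median was -0.24. With total-count scaling 6 were called lower and 3 higher (50% lower, against 15.6% of all genes tested with that scaling). Per gene length, SRSF1 had the highest level of the family, at 48.1 ± 0.508 FPKM with oridonin and 58.1 ± 2.15 FPKM with DMSO, and SRSF12 the lowest, at 0.829 ± 0.11 FPKM with oridonin and 0.559 ± 0.108 FPKM with DMSO (SD, n = 3).

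SRSF6 (ENSG00000124193, hg38 chromosome 20, 43457928 to 43464247, plus strand), an SR protein with a pair of RNA recognition motifs, had 162, 171 and 157 CPM in the oridonin libraries 1 to 3, against 209, 219 and 195 CPM in the DMSO libraries. Every oridonin library lay below every DMSO library. On the log2 scale it fell at -0.34 ± 0.05 (SE) (edgeR adjusted p = 6.86e-05).

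The start of SRSF6 is shown as the called SR gene with the lowest fold change. It covers 120 bases before and 20 bases from the annotated start in RefSeq on GRCh38.p14, chr20:43457776-43457915, plus strand, 5′ to 3′, with matches to GGGCGG or its complement in capitals.
SRSF6: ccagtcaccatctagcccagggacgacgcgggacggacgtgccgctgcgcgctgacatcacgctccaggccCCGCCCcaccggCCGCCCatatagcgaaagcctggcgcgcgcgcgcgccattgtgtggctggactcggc
The letters GGGCGG, bound by SP factors, occur more than once here on the minus strand.

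SRSF10 (ENSG00000188529, hg38 chromosome 1, 23964804 to 23980927, minus strand), an SR protein that can act as a repressor of splicing when dephosphorylated, had 99.2, 107 and 94.8 CPM in the oridonin libraries 1 to 3, against 132, 125 and 116 CPM in the DMSO libraries. Its groups were also apart, at a log2 fold change of -0.31 ± 0.06 (SE) (edgeR adjusted p = 0.000404). SRSF1 (ENSG00000136450, hg38 chromosome 17, 58003360 to 58007346, minus strand), the founding SR protein, had 159, 161 and 159 CPM with oridonin and 195, 204 and 188 CPM with DMSO, at -0.29 ± 0.05 (SE) with an edgeR adjusted p of 0.000104. The 3 oridonin values lay close together and under all DMSO values.

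SRSF4 (ENSG00000116350, hg38 chromosome 1, 29147743 to 29181987, minus strand), a close relative of SRSF6, had 84.9, 85.9 and 83.2 CPM with oridonin and 102, 102 and 103 CPM with DMSO. It fell at a log2 fold change of -0.28 ± 0.05 (SE) (edgeR adjusted p = 0.000184), with no overlap. SRSF3 (ENSG00000112081, hg38 chromosome 6, 36594353 to 36605600, plus strand), the smallest SR protein and an adaptor for mRNA export, had 308, 335 and 309 CPM with oridonin and 375, 378 and 355 CPM with DMSO. It fell at -0.22 ± 0.05 (SE) (edgeR adjusted p = 0.00185). SRSF7, which shares the export role of SRSF3 and carries a zinc knuckle, fell at -0.18 ± 0.05 (SE) (edgeR adjusted p = 0.00678), but was not called with total-count scaling.

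SRSF2, which recognises exon sequences and also takes part in transcription elongation, had 85.8, 96.9 and 90.9 CPM in the oridonin libraries 1 to 3, against 114, 119 and 96.5 CPM in the DMSO libraries. DMSO library 3 lay just under oridonin library 2, so the groups overlapped. By edgeR it fell at -0.27 ± 0.07 (SE) (edgeR adjusted p = 0.00876), and limma on the deposited log2 FPKM values did not call it. SRSF2 shares 1106 exonic bases with MFSD11 on the opposite strand, a gene at 20.7 CPM with oridonin and 18.5 CPM with DMSO, and the strand setting of the counting is not given in the sources used here.

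The remaining SR genes were not called, apart from SRSF12. SRSF5 had 149, 152 and 143 CPM with oridonin and 141, 151 and 135 CPM with DMSO, at 0.06 ± 0.05 (SE) (edgeR adjusted p = 0.417). SRSF11 had a log2 fold change of -0.13, SRSF8 of 0.12 and SRSF9 of 0.00 (edgeR adjusted p = 0.0578, 0.13 and 0.99). SRSF12, a weakly expressed relative of SRSF10, rose to 4.02, 3.18 and 4.04 CPM with oridonin, against 2.1, 3.06 and 2.52 CPM with DMSO. These are 128, 98 and 114 raw counts with oridonin and 46, 87 and 69 with DMSO. It rose by a log2 fold change of 0.53 ± 0.17 (SE) (edgeR adjusted p = 0.0152). It was not called by DESeq2, by limma, or without oridonin library 1 or 3 or DMSO library 1, at edgeR adjusted p of 0.0594, 0.0526 and 0.0671.

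**Figure D2:**
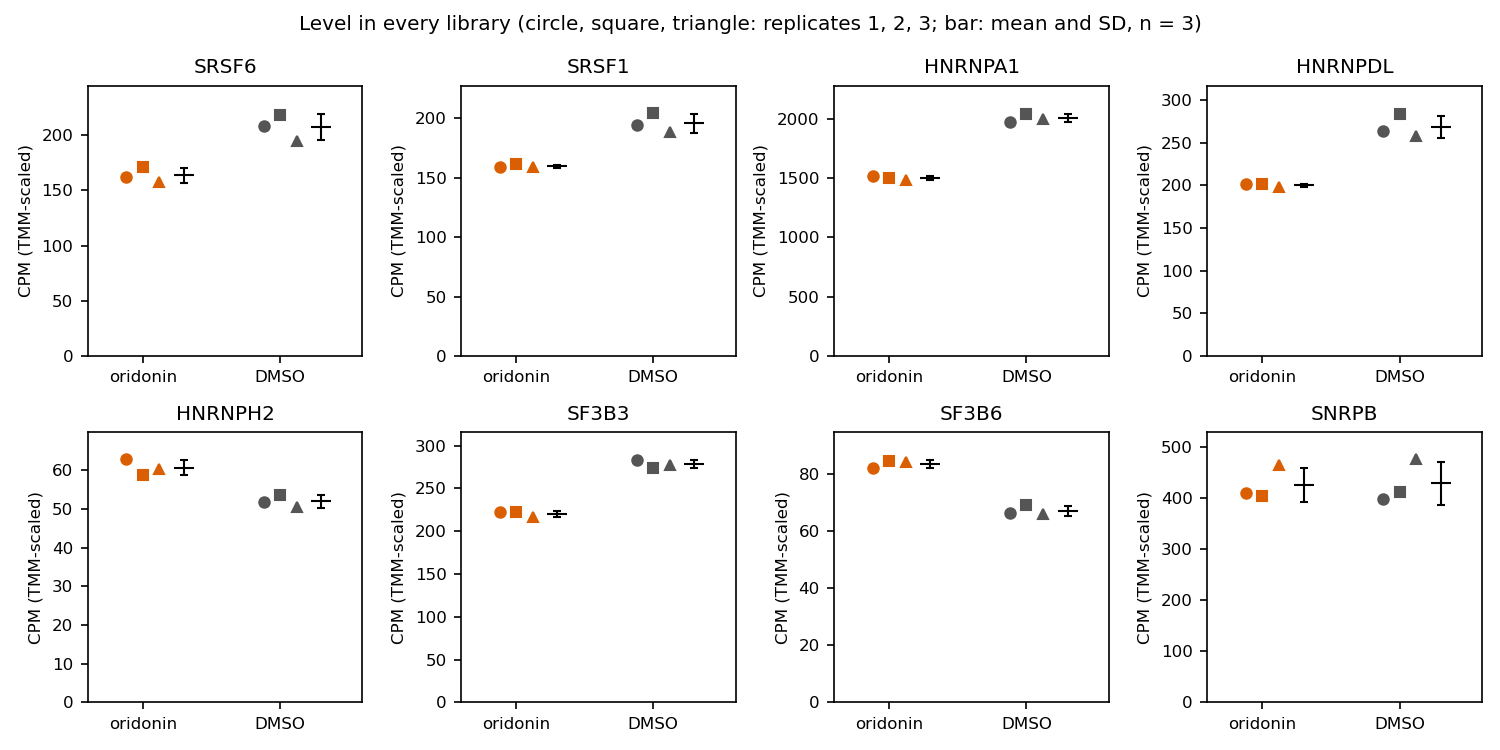
TMM-scaled CPM of 8 splicing factor genes in each library (vertical axes from 0), with circle, square and triangle for replicates 1, 2 and 3 and a bar for the mean and SD (n = 3). In SRSF6, SRSF1, HNRNPA1, HNRNPDL and SF3B3 all oridonin points lie below all DMSO points, in HNRNPH2 and SF3B6 above them, and in SNRPB replicate 3 is the highest of both groups.

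Among the hnRNP genes, 47.6% were called lower, against 21.3% of all genes tested and 27.4% of abundant protein-coding genes. In number, 10 of 21 fell and 1 rose, with a median log2 fold change of -0.12. With total-count scaling 3 were called lower and 3 higher, and the 14.3% called lower was near the 15.6% of all genes tested with that scaling. The count also depended on single libraries, with 7 of the family called without oridonin library 2, and 6 without DMSO library 2, in place of 11. Calls over all genes fell as well with these omissions, to 5617 and 5282 in place of 6332.

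HNRNPA1 (ENSG00000135486, hg38 chromosome 12, 54280193 to 54287088, plus strand), which binds exonic and intronic silencers and shuttles between nucleus and cytoplasm, had the highest level of the 54 genes per gene length in the DMSO libraries, and came after SNRPB in the oridonin libraries, at 296 ± 2.05 FPKM with oridonin and 392 ± 8.27 FPKM with DMSO (SD, n = 3). In CPM it had 1521, 1502 and 1481 CPM in the oridonin libraries 1 to 3, against 1978, 2043 and 2003 CPM in the DMSO libraries. The groups were far apart relative to the spread within each, at a log2 fold change of -0.42 ± 0.04 (SE) (edgeR adjusted p = 6.68e-07). Its share of the summed FPKM of the hnRNP genes was 19.3% ± 0.277 with oridonin and 23.2% ± 0.208 with DMSO (SD, n = 3). The 10 HNRNPA1 pseudogenes with a value held together 1.29% to 1.63% of the gene's own count, and reads of near-identical copies may have been assigned to either.

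HNRNPDL (ENSG00000152795, hg38 chromosome 4, 82422564 to 82430408, minus strand), a relative of the AU-rich element binding protein HNRNPD, had 201, 201 and 198 CPM in the oridonin libraries 1 to 3, against 264, 284 and 258 CPM in the DMSO libraries. The oridonin libraries differed little from each other and all lay under the DMSO libraries. It fell at a log2 fold change of -0.42 ± 0.05 (SE) (edgeR adjusted p = 2.37e-06). HNRNPD, also on chromosome 4, fell at -0.18 ± 0.05 (SE) (edgeR adjusted p = 0.00379), but was not called with total-count scaling. HNRNPAB, the other gene of that group, had 297, 292 and 311 CPM with oridonin and 262, 277 and 286 CPM with DMSO, with no overlap and no call (log2 fold change 0.12 ± 0.05 (SE), edgeR adjusted p = 0.0525).

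The start of HNRNPDL is shown as the hnRNP gene with the lowest fold change among those with an entry in the promoter table (chr4:82430206-82430345, GRCh38.p14, minus strand, RefSeq, 5′ to 3′, 120 bases before and 20 from the start). Below it stands HNRNPH2, the hnRNP gene called higher (chrX:101408102-101408241, plus strand). Capitals mark GGGCGG or its complement and, in HNRNPH2, CACGTG as well.
HNRNPDL: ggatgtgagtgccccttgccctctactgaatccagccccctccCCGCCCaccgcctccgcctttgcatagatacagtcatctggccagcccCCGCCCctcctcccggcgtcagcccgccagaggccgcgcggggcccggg
HNRNPH2: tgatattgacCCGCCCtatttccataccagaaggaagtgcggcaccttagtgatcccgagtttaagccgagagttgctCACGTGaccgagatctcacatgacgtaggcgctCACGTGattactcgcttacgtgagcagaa
CACGTG is the E-box bound by basic helix-loop-helix factors such as MYC, USF and TFEB, and the search letters were chosen with these results known. HNRNPDL holds CACGTG as well, in the longer promoter window searched below but outside the stretch shown.

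HNRNPH2 (ENSG00000126945, hg38 chromosome X, 101408295 to 101414133, plus strand) and its relatives HNRNPF, HNRNPH1 and HNRNPH3 bind runs of G. HNRNPH2 rose, with 62.8, 58.8 and 60.3 CPM in the oridonin libraries 1 to 3, against 51.8, 53.6 and 50.4 CPM in the DMSO libraries. All oridonin values lay above all DMSO values (log2 fold change 0.22 ± 0.05 (SE), edgeR adjusted p = 0.00341). The other members of the group went down: HNRNPF (ENSG00000169813, hg38 chromosome 10, 43385617 to 43409166, minus strand) had 322, 325 and 326 CPM with oridonin and 365, 395 and 366 CPM with DMSO, at -0.21 ± 0.05 (SE) with an edgeR adjusted p of 0.00171. HNRNPH1 fell at -0.17 ± 0.05 (SE) and HNRNPH3 at -0.16 ± 0.06 (SE) (edgeR adjusted p = 0.0141 and 0.0279), and each lost its call with total-count scaling. HNRNPH1 was also not called without oridonin library 2 or DMSO library 1 or 2 (edgeR adjusted p = 0.0566, 0.0573 and 0.0732), nor HNRNPH3 without the same libraries (edgeR adjusted p = 0.132, 0.0579 and 0.151). HNRNPH3 shares 115 exonic bases with RUFY2 on the opposite strand, which had 14.7 CPM with oridonin and 9.69 CPM with DMSO.

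HNRNPUL1, of the group around the nuclear scaffold protein HNRNPU, had 359.6, 337 and 371 CPM with oridonin and 395, 393 and 419 CPM with DMSO and fell at -0.18 ± 0.05 (SE) (edgeR adjusted p = 0.00819), but was not called with total-count scaling or by limma. It shares 215 exonic bases with TGFB1 on the opposite strand, which had 262 CPM with oridonin and 218 CPM with DMSO. HNRNPU itself, at 584 ± 10.7 CPM with oridonin, against 648 ± 11.9 CPM with DMSO (SD, n = 3), fell at -0.15 ± 0.04 (SE) (edgeR adjusted p = 0.0109), though not without DMSO library 2 (edgeR adjusted p = 0.0654) or with total-count scaling. HNRNPA0 and HNRNPA3, relatives of HNRNPA1, fell at -0.16 and -0.12 (edgeR adjusted p = 0.0174 and 0.0404), and both lost the call with total-count scaling (edgeR adjusted p = 0.179 and 0.476) and with limma, HNRNPA3 also with no filter (edgeR adjusted p = 0.153). Leaving out single libraries ended the call of HNRNPA0 for oridonin 1, oridonin 2 and DMSO 2 (edgeR adjusted p = 0.0804, 0.0773 and 0.0619). For HNRNPA3 all omissions but that of DMSO library 3 did so, at edgeR adjusted p of 0.0561 to 0.18.

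The other hnRNP genes were not called. HNRNPK, a poly(C) binding protein and the uncalled hnRNP gene with the highest mean level per length, at 134 ± 1.42 FPKM with oridonin and 137 ± 4.27 FPKM with DMSO (SD, n = 3), had 681, 678 and 682 CPM with oridonin and 714, 725 and 675 CPM with DMSO, at a log2 fold change of -0.05 ± 0.05 (SE) (edgeR adjusted p = 0.394), and its sign was opposite with total-count scaling, at 0.03. HNRNPA2B1, which sorts RNAs for transport and export, stood at 972 ± 28 CPM with oridonin, against 1009 ± 41.1 CPM with DMSO (SD, n = 3), with -0.05 ± 0.05 (SE) (edgeR adjusted p = 0.39) and the opposite sign with total-count scaling, at 0.03. HNRNPC, which masks cryptic exons in Alu repeats, was at -0.08 and HNRNPR at -0.10 (edgeR adjusted p = 0.152 and 0.0884), each with its groups apart. HNRNPL was at -0.06, with the opposite sign, at 0.02, under total-count scaling, HNRNPM at 0.03, HNRNPUL2 at 0.06 and HNRNPLL at 0.11 (edgeR adjusted p = 0.384, 0.682, 0.599 and 0.0737). HNRNPA1L2, at 4.5 ± 0.54 CPM with oridonin, against 4.93 ± 0.287 CPM with DMSO (SD, n = 3), is a near copy of HNRNPA1, so its value is uncertain.

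**Figure D3:**
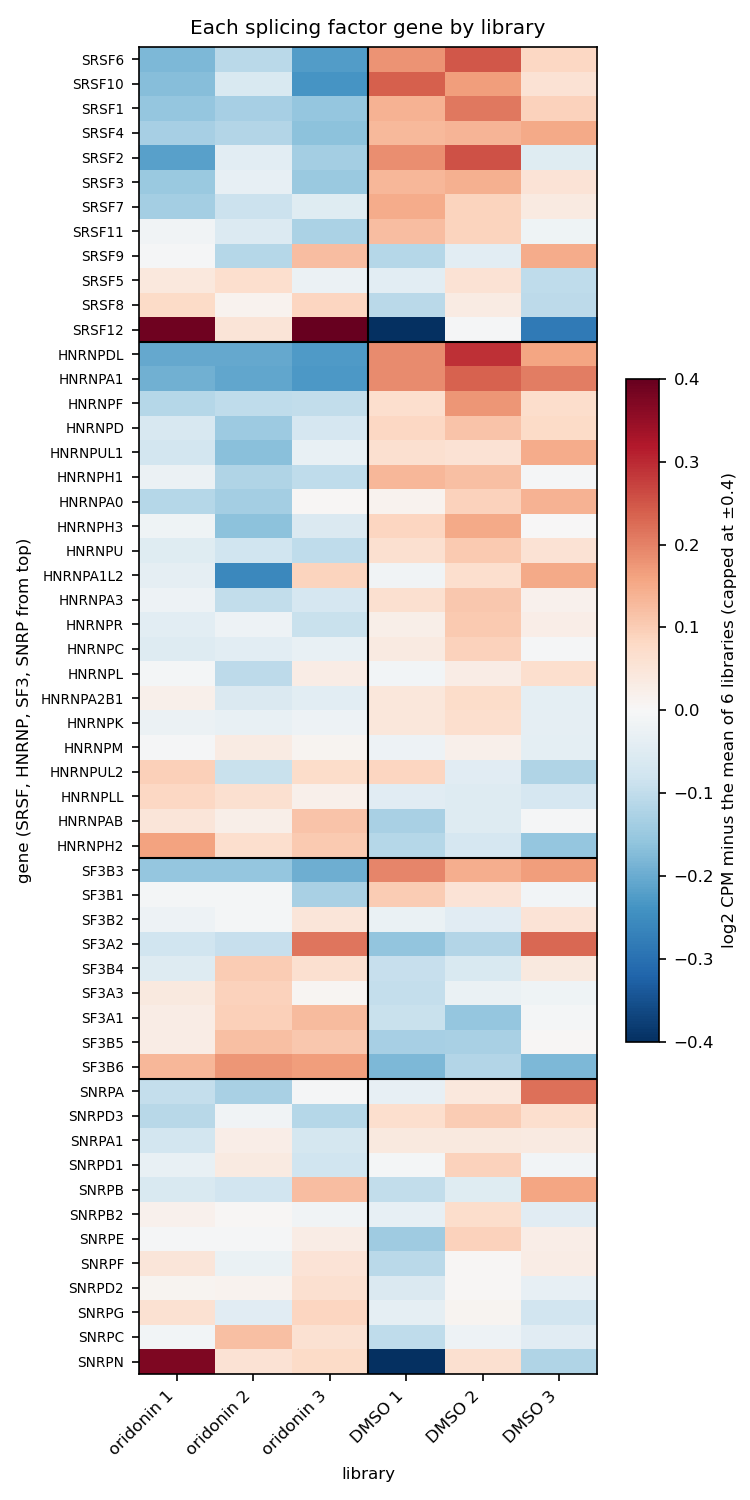
Log2 CPM of each of the 54 genes in each library (columns, oridonin 1 to 3, then DMSO 1 to 3), minus the gene's mean over the 6 libraries, with colours capped at ±0.4 and genes ordered by fold change within each family. Most SRSF and HNRNP rows are lower across the oridonin columns, while SF3A2, SNRPB and SRSF9 are highest in library 3 of each group.

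Of the 9 genes of the SF3A and SF3B complexes, 33.3% were called higher, against 20.6% of all genes tested and 23.4% of abundant protein-coding genes. In number, 3 rose and 1 fell, with a median log2 fold change of 0.08. The count of 4 calls became 2 without DMSO library 1 and 2 without DMSO library 2, with SF3B6 and SF3B3 left. Calls over all genes went from 6332 to 5652 and 5282 with these omissions. With total-count scaling 5 were called higher and 1 lower (55.6% higher, against 29.7% of all genes tested with that scaling). SF3B6 (ENSG00000115128, hg38 chromosome 2, 24067584 to 24076443, minus strand), the small subunit that lies at the branch point adenosine, had 81.9, 84.6 and 83.9 CPM in the oridonin libraries 1 to 3, against 66.1, 69 and 65.9 CPM in the DMSO libraries. All oridonin values were above all DMSO values, at a log2 fold change of 0.32 ± 0.05 (SE) (edgeR adjusted p = 8.32e-05).

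The start of SF3B6 is given as the subunit with the highest fold change (chr2:24076307-24076446, GRCh38.p14, minus strand, RefSeq, 5′ to 3′). Capitals mark the complement of CCGGAAG, letters bound by ETS factors.
SF3B6: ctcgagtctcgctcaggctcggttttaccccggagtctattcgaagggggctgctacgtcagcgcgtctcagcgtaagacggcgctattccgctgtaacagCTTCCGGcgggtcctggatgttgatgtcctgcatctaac
The match lies within 20 bases upstream of the start.

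SF3B3 (ENSG00000189091, hg38 chromosome 16, 70523788 to 70577670, plus strand), a large scaffold subunit, went the other way, with 222, 222 and 216 CPM in the oridonin libraries 1 to 3, against 283, 274 and 278 CPM in the DMSO libraries. No libraries overlapped, and it fell at -0.34 ± 0.04 (SE) on the log2 scale (edgeR adjusted p = 1.29e-05). SF3B5 (ENSG00000169976, hg38 chromosome 6, 144094881 to 144095573, minus strand), a very small subunit, had 139.6, 149 and 147 CPM with oridonin and 125, 125 and 137 CPM with DMSO, and rose at 0.17 ± 0.05 (SE) (edgeR adjusted p = 0.0145). SF3A1 (ENSG00000099995, hg38 chromosome 22, 30331988 to 30356947, minus strand), which also contacts the U1 snRNP, had 170.2, 178 and 182 CPM with oridonin and 157, 149.6 and 166 CPM with DMSO, at 0.17 ± 0.05 (SE) (edgeR adjusted p = 0.0152). SF3B5 was not called without oridonin library 2 or DMSO library 1 or 2 (edgeR adjusted p = 0.0573, 0.0769 and 0.0875). SF3A1 was not called without oridonin library 3 or DMSO library 1 or 2 (edgeR adjusted p = 0.0548, 0.0501 and 0.113).

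SF3B1 (ENSG00000115524, hg38 chromosome 2, 197389784 to 197435091, minus strand), the branch point clamp that is recurrently mutated in blood cancers, was not called, with 417, 417 and 383 CPM with oridonin and 450.1, 436 and 416 CPM with DMSO, at -0.10 ± 0.05 (SE) (edgeR adjusted p = 0.134). SF3A3 was at 0.09, SF3B4 at 0.08 and SF3B2 at 0.01 (edgeR adjusted p = 0.144, 0.302 and 0.863). SF3A2 had 89.7, 88.9 and 109.9 CPM with oridonin and 85, 87.5 and 111 CPM with DMSO, and library 3 was the highest of each group. Oridonin over DMSO it stood at 0.02 ± 0.12 (SE) on the log2 scale (edgeR adjusted p = 0.905), and it shares 398 exonic bases with PLEKHJ1 on the opposite strand, which had 90.3 CPM with oridonin and 101 CPM with DMSO.

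Of 12 SNRP genes, 1 fell and none rose by edgeR (8.33% called lower, against 21.3% of all genes tested), with a median log2 fold change of 0.01. With total-count scaling 4 others were called, all higher (33.3%, against 29.7% of all genes tested with that scaling). No SNRP gene was called without oridonin library 1 or DMSO library 2, and 2 were called without DMSO library 1. Calls over all genes were 5502, 5282 and 5652 with these omissions, in place of 6332. SNRPB (ENSG00000125835, hg38 chromosome 20, 2461634 to 2470853, minus strand), an Sm protein and the most abundant of them per length at 335 ± 27.4 FPKM with oridonin and 334 ± 34.4 FPKM with DMSO (SD, n = 3), had 409.6, 405 and 465 CPM in the oridonin libraries 1 to 3, against 399, 413 and 477 CPM in the DMSO libraries. The oridonin range lay inside the DMSO range, with library 3 the highest of each, and its fold change was -0.01 ± 0.07 (SE) on the log2 scale (edgeR adjusted p = 0.919), positive at 0.07 with total-count scaling. The log2 fold changes of the other Sm genes SNRPD1, SNRPD2, SNRPE, SNRPF and SNRPG were -0.05, 0.06, 0.01, 0.05 and 0.07, with edgeR adjusted p of 0.486, 0.351, 0.911, 0.487 and 0.3.

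SNRPD3 (ENSG00000100028, hg38 chromosome 22, 24555503 to 24609980, plus strand), also of the Sm ring, was the 1 called gene, with 96.4, 103 and 96.2 CPM with oridonin and 109, 112 and 109 CPM with DMSO. The groups did not overlap, at -0.16 ± 0.05 (SE) (edgeR adjusted p = 0.0173). The call was lost with total-count scaling, with no filter, by limma, and without oridonin library 1, oridonin library 3 or DMSO library 2 (edgeR adjusted p = 0.0864, 0.0604 and 0.0732). SNRPD3 shares 306 exonic bases with GGT1 on its own strand and 321 with GUCD1 on the opposite strand. GUCD1 was at least as high, at 107 CPM with oridonin and 115 CPM with DMSO.

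For the U1 proteins, SNRPA was at -0.16 ± 0.06 (SE) and SNRPC at 0.11 ± 0.05 (SE) (edgeR adjusted p = 0.0573 and 0.0851). SNRPA had 70.6, 69 and 75.3 CPM with oridonin and 73.8, 77.7 and 88 CPM with DMSO, with DMSO library 3 above the rest, and it was called lower without oridonin library 3 and without DMSO library 1 (edgeR adjusted p = 0.036 and 0.0167). For the U2 proteins, SNRPA1 was at -0.08, positive at 0.00444 with total-count scaling, and SNRPB2 at 0.0043 (edgeR adjusted p = 0.259 and 0.954). SNRPN, the imprinted Sm gene of brain and heart, had 18, 14 and 13 raw counts with oridonin and 7, 13 and 11 with DMSO, and no change was detectable at this depth (log2 fold change 0.31 ± 0.34 (SE), edgeR adjusted p = 0.493).

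In some members, libraries with the same replicate number were the highest of their groups. Library 3 was the highest of both groups in 12 members, among them SF3A2, SNRPB, SNRPA and SRSF9, library 2 in 12 and library 1 in 5. Some sharing follows from uneven libraries: library 2 was the highest in 18 members with oridonin and in 30 with DMSO. Library 3 was so in 21 and 16, and library 1 in 15 and 8. The matching count over all genes was not taken. In SRSF9 the values were 96.4, 89.4 and 105 CPM with oridonin and 89.4, 93.9 and 107 CPM with DMSO. The labels name no batch, and do not say what a replicate number stands for.

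Summed over genes per length, the SRSF family had a level of 292, 304 and 298 FPKM in the oridonin libraries, against 335, 347 and 325 FPKM in the DMSO libraries, a difference of -11.4%. The HNRNP sum was 1536, 1513 and 1545 FPKM with oridonin, against 1658, 1728 and 1678 FPKM with DMSO, a difference of -9.25%. Without HNRNPA1 it was 1236 ± 17.2 FPKM with oridonin, against 1296 ± 28.8 FPKM with DMSO (SD, n = 3), a difference of -4.68%. In both families every oridonin sum lay below every DMSO sum. The exact two-sided permutation test gave p = 0.1 for each, the smallest that 3 against 3 libraries allow, and an adjusted p of 0.133 over the 4 families. The sums depend on scaling: put back on total counts, the differences were -5.26% for HNRNP and -7.45% for SRSF, still without overlap.

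The SF3 sum in FPKM was 502 ± 15.7 with oridonin, against 458 ± 20.4 with DMSO (SD, n = 3), with every oridonin sum above every DMSO sum (exact permutation p = 0.1, adjusted p = 0.133). Its short gene SF3B5 held 42% ± 0.473 with oridonin and 40.3% ± 0.744 with DMSO (SD, n = 3) of that sum, and in CPM, which is not divided by length, the log2 ratio was -0.01 in place of 0.13. Without SF3B5, an omission chosen after seeing the data, the FPKM sum still differed by 6.2%. It was then 291 ± 7.09 with oridonin, against 274 ± 8.74 with DMSO (SD, n = 3). On total counts the SF3 difference was 14.3%, in place of 9.47%. The SNRP sum in FPKM was 887 ± 35.6 with oridonin, against 870.5 ± 46.6 with DMSO (SD, n = 3), with overlap between the groups (exact permutation p = 0.8, adjusted p = 0.8). On total counts that sum differed by 6.39%, without overlap. SNRPB made up 37.8% ± 1.56 with oridonin and 38.3% ± 2.11 with DMSO (SD, n = 3).

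Ratios between related genes within a library do not depend on how libraries are scaled. The log2 FPKM ratio of HNRNPA1 to HNRNPA2B1 was 1.19 ± 0.025 with oridonin and 1.56 ± 0.053 with DMSO (SD, n = 3), and that of HNRNPH1 to HNRNPH2 was 0.78 ± 0.012 with oridonin and 1.18 ± 0.05 with DMSO (SD, n = 3). Oridonin libraries lay below all DMSO libraries in both ratios, by 0.37 and 0.39. SRSF2 to SRSF8 stood at 1.40 ± 0.12 with oridonin and 1.78 ± 0.12 with DMSO (SD, n = 3), and HNRNPL to HNRNPLL at 0.76 ± 0.09 with oridonin and 0.92 ± 0.05 with DMSO (SD, n = 3), again without overlap. For these 4 of the 8 pairs the exact permutation p was 0.1, the smallest possible, and 0.2 adjusted over the pairs. Groups overlapped in SRSF3 to SRSF7, SRSF4 to SRSF6, SF3B2 to SF3B4 and SNRPB to SNRPN, with differences of -0.04, 0.06, -0.06 and -0.34 and exact permutation p of 0.5, 0.4, 0.3 and 0.2.

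**Figure D4:**
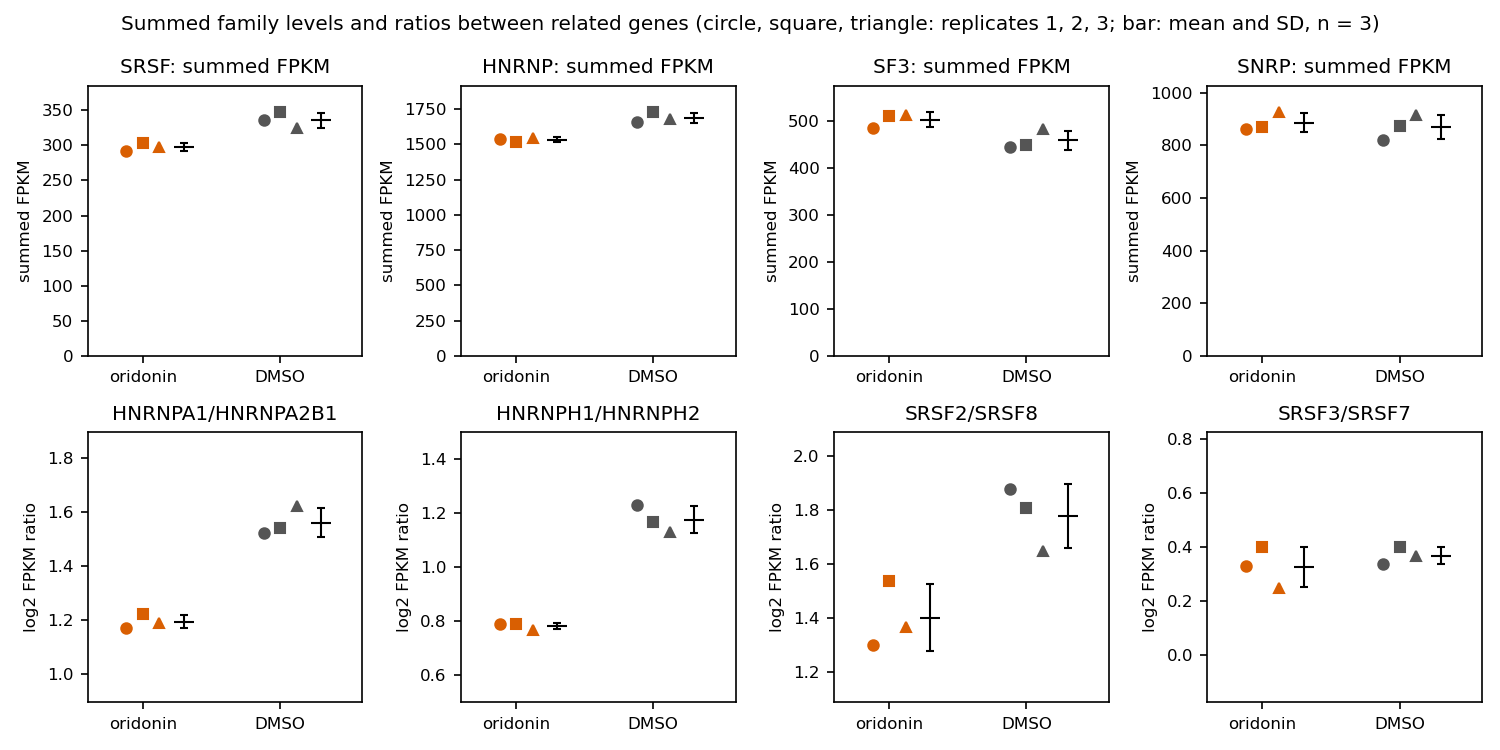
Top, summed FPKM of each gene family in each library (vertical axes from 0). Bottom, log2 FPKM ratio of 4 gene pairs in each library, on axes that span 1 log2 unit and do not start at 0. Circle, square and triangle are replicates 1, 2 and 3, and bars are the mean and SD (n = 3). As deposited, SRSF and HNRNP sums lie lower with oridonin, SF3 sums higher, and the HNRNPA1/HNRNPA2B1 and HNRNPH1/HNRNPH2 ratios lie lower without overlap.

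The members lie on many chromosomes, and 12 of them start within 1000 bases of a tested gene on the opposite strand that is transcribed away from them (GENCODE 29, GRCh38). HNRNPH2 and GLA, the lysosomal alpha-galactosidase gene, start 283 bases apart. GLA had 39.4 ± 0.881 CPM with oridonin, against 29.1 ± 0.807 CPM with DMSO (SD, n = 3), and rose like HNRNPH2, at a log2 fold change of 0.44 ± 0.06 (SE, edgeR adjusted p = 1.66e-05). HNRNPDL and ENOPH1, an enzyme of methionine salvage, start 154 bases apart, and ENOPH1 fell as well, at -0.22 ± 0.05 (SE, edgeR adjusted p = 0.00182). CBX5, 60 bases from the start of HNRNPA1, encodes a heterochromatin protein. It had 37.4 ± 1.79 CPM with oridonin and 43.4 ± 5.99 CPM with DMSO (SD, n = 3) and was not called (edgeR adjusted p = 0.0617). The partners of SF3B3 and SRSF7 had other values: COG4, 223 bases from SF3B3, was at 0.01 (edgeR adjusted p = 0.923), and GEMIN6, 40 bases from SRSF7, rose at 0.18 (edgeR adjusted p = 0.0463). Apart from ENOPH1, the partners called lower lay beside uncalled members. They were RMI1 by HNRNPK, QPCTL by SNRPD2 and AC023024.1 by SNRPA1, at -0.44, -0.29 and -0.50 (edgeR adjusted p = 0.000357, 0.00192 and 0.0432). Of the 12 partners, 2 were called higher and 4 lower, a share near the 41.9% of all genes tested that were called. Exons of 14 members overlap those of a tested gene, and in 3 of them, SF3A2, SNRPD3 and SNRPN, a partner was at least as high as the member.

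Promoter windows of 300 bases (RefSeq, GRCh38.p14, 250 bases before to 50 from the start) were found for 50 of the 54 members, and HNRNPA1, SF3B3, SNRPD1 and SRSF2 had no entry. The ETS letters CCGGAAG, searched on both strands, were in 18 of the 50 (36%), against 21.2% of the 7066 windows of other abundant protein-coding genes and 10.7% of all 27305 windows. Of the 16 members called lower that had a window, 3 held them. CACGTG was in 8 of 50 (16%), against 10.9% and 7.43% in the same backgrounds, and in 5 of the 16 called lower. GGGCGG was in 33 (66%, against 73.2% and 44.6%), CCAAT in 20 (40%, against 36.9% and 35.7%) and TATAAA in 6 (12%, against 4.64% and 11.95%). The longer YY1 motif was in 1, and the NRF1 motif in none. A start at C followed by pyrimidines, 5 or more in all, as in messages of the translation machinery, was in 4 members (8%, against 5.79% and 4.04%). These are matches of letters and not measured binding.

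In GENCODE 29, all 12 SRSF genes have at least 1 transcript annotated as a target of nonsense-mediated decay, as have 13 of 21 HNRNP genes, 3 of 9 SF3 genes and 4 of 12 SNRP genes. Over the members this is 59.3%, against 46.0% of 8964 other abundant protein-coding genes. Among members called lower it is 15 of 19, and among the others 17 of 35. Within the HNRNP family the shares were alike, with 6 of 10 against 7 of 11. The SRSF shares, 7 of 7 against 5 of 5, could not differ, as every SRSF gene has such a transcript. In SF3 and SNRP only 1 gene each was called lower, and it had one, against 2 of 8 and 3 of 11 of the others.

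Other genes of RNA splicing were read from 10 lists drawn from general knowledge, with 157 genes tested. Of these, 23 were called higher and 37 lower (14.6% and 23.6%, against 20.6% and 21.3% of all genes tested). Among the abundant protein-coding genes 23.4% were called higher and 27.4% lower, so the lists were under that background in both directions. With total-count scaling 43 listed genes were called higher and 16 lower (27.4% and 10.2%, against 29.7% and 15.6% of all genes tested with that scaling). Without DMSO library 2 the lists held 39 calls in place of 60, and all genes 5282 in place of 6332. Other alternative splicing regulators were lower in 12 of 29 and higher in 2. MBNL3, a muscleblind family regulator, had 429 ± 31.2 CPM with oridonin, against 657 ± 63.8 CPM with DMSO (SD, n = 3) and fell at -0.62 (edgeR adjusted p = 1.05e-05), and FUBP1, a far upstream element binding protein, fell at -0.48 (edgeR adjusted p = 1.28e-06). MBNL1, another muscleblind gene, rose at 0.37 (edgeR adjusted p = 4.56e-05). Among hnRNP proteins with other symbols, 5 of 8 fell and none rose, with PCBP2, a poly(C) binding protein, at -0.38 (edgeR adjusted p = 3.09e-05). Of 11 SR-related genes 3 fell and none rose, with PNN at -0.34 (edgeR adjusted p = 3.53e-05) and TRA2B at -0.17 (edgeR adjusted p = 0.00785).

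Among factors that recognise the branch point and the 3′ splice site, 4 of 13 fell (30.8%), and none rose. Over all genes tested 21.3% were called lower and 20.6% higher. Among abundant protein-coding genes these were 27.4% and 23.4%, so the share called lower was near that background. SF1, the branch point binding protein that U2 replaces, had 229 ± 5.43 CPM with oridonin, against 295 ± 14.3 CPM with DMSO (SD, n = 3) and fell at -0.37 (edgeR adjusted p = 1.39e-05), and U2SURP fell at -0.19 (edgeR adjusted p = 0.00637). Against the same backgrounds, snRNP-specific proteins were lower in 7 of 20 (35%) and higher in 5. PRPF8, the protein at the catalytic centre, fell at -0.27 (edgeR adjusted p = 0.000129) and SNRNP40 at -0.35 (edgeR adjusted p = 0.000111), while the helicase gene DDX23 rose at 0.23 (edgeR adjusted p = 0.000664). LSM ring proteins were lower in 3 of 10 (30%) and higher in 2, near the background. LSM10 and LSM11, both of the U7 snRNP that processes histone transcripts, went apart, with LSM10 at 0.52 (edgeR adjusted p = 1.24e-05) and LSM11 at -0.44 (edgeR adjusted p = 0.000567), and LSM8 was at -0.27 (edgeR adjusted p = 0.00601).

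The PRPF19 complex and catalytic step factors were higher in 8 of 27 and lower in 1, beside 20.6% higher and 21.3% lower over all genes tested. Among abundant protein-coding genes 23.4% were called higher and 27.4% lower. The helicase gene DHX38 rose at 0.26 (edgeR adjusted p = 0.000629) and CTNNBL1 at 0.23 (edgeR adjusted p = 0.000763), and PRPF38A fell at -0.36 (edgeR adjusted p = 0.000103). Of 9 genes of SR protein kinases and their importer, 1 rose, CLK4 at 0.26 (edgeR adjusted p = 0.0428), and 1 fell, SRPK2 at -0.27 (edgeR adjusted p = 0.00241), so 22.2% of that list were called, against 41.9% of all genes tested. In the exon junction and decay list, with 20% called, 2 of 15 rose, UPF1 at 0.16 (edgeR adjusted p = 0.0403), with overlapping groups, and SMG8 at 0.26 (edgeR adjusted p = 0.0033), and 1 fell, MAGOHB at -0.26 (edgeR adjusted p = 0.0186). Of 15 genes of the SMN complex and snRNP assembly 3 rose and none fell (20% called), with STRAP at 0.15 (edgeR adjusted p = 0.0332) and SMN2 at 0.37 (edgeR adjusted p = 0.00789), SMN2 being uncertain because SMN1 is a near-identical copy.

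**Figure D5:**
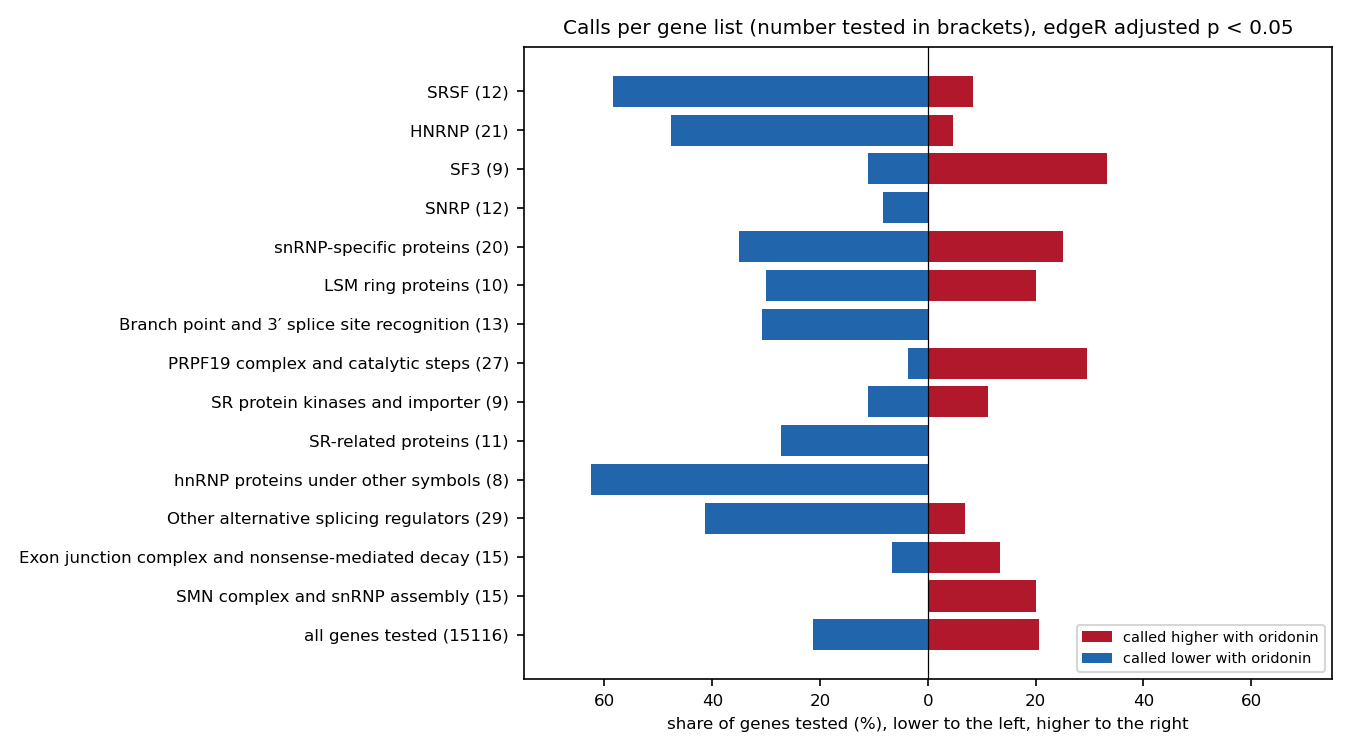
Share of tested genes called lower (left) and higher (right) with oridonin, in percent, for the 4 gene families, 10 other splicing lists and all 15116 genes tested, with the number tested in brackets. SRSF (58.3%) and HNRNP (47.6%) have larger shares of lower calls than all genes tested (21.3%) with TMM scaling, though for HNRNP not with total-count scaling (14.3%, against 15.6%). The PRPF19 list has 8 of 27 genes higher, against 20.6% of all genes tested and 23.4% of abundant protein-coding genes.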

How the data were processed

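The authors' first table holds raw counts per gene for 60504 genes, as deposited. Their second holds deposited log2 FPKM values, per gene length and library size, for 18404 genes, those with at least 1 count in every library. No pseudocount is apparent. The library size behind the deposited FPKM, found from the counts and lengths, was 1.01 to 1.04 times the total count in the oridonin libraries and 0.959 to 1.00107 times in the DMSO libraries, so these values are scaled between libraries and not to the total alone. Gene lengths in bases and hg38 coordinates are the authors', as deposited. The submitters' processing notes name hg38 and DESeq2 1.10.1. No source used here names the aligner, counting program or strand setting, so genes that overlap or have near-identical copies are uncertain.

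Columns were tied to samples by the descriptions in the labels, and genes were joined by identifier. Counts were fitted over all genes with edgeR 4.0.16 in R 4.3.3 (filterByExpr, TMM, robust glmQLFit, glmQLFTest, treatment as the only term), with Benjamini-Hochberg adjustment over 15116 genes and calls at an adjusted p under 0.05. The SE is the log2 fold change divided by the square root of F. CPM is TMM-scaled, except the marker sums, which are CPM of total counts. FPKM is 2 to the power of the deposited value. Fits were tested on simulated data. Alternatives were limma 3.58.1, DESeq2 1.42.0, other scalings, no filter, a replicate block, an adjusted p under 0.01 and the omission of each library. FPKM sums and ratios had exact permutation tests. Motif letters were searched in the promoter windows.

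In each family the text names up to 5 calls of lowest p in the commoner direction and up to 3 in the other, plus the genes of highest mean FPKM overall and among those not called; in each list, up to 2 and 1 by the same order. The members, lists and this rule were chosen with earlier results of these data known, and further members were named to account for the whole set. A gene that the rule names in a list is not reported here. No source used here names molecular identifiers, so depth limits cover counting error only.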

Additional observations from a re-analysis of the deposited data

How the results depend on the processing

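Of the 24 called members, none changed direction under the 12 refits, and 11 also kept their call in all of them. Total-count scaling left the number of members called near 24, at 25, and moved their split to 15 higher and 10 lower. With it 6 HNRNP and 4 SNRP genes were called, in place of 11 and 1. The member median was 0.0247 with it, in place of -0.06, -0.0379 with no filter, -0.0367 with limma and -0.0807 to -0.0467 on leaving out single libraries. With limma, 7 HNRNP, 0 SNRP and 39 listed splicing genes (60 in the main fit) were called, and with no filter 0 SNRP genes. Over all genes, limma called 5378 of 18404, the fit with no filter 6412 of 31017 and the main fit 6332 of 15116. At an adjusted p under 0.01 there were 15 members, 6 HNRNP, 2 SF3, 0 SNRP and 35 listed genes, beside 4565 of all 15116 genes tested. Without single libraries, 6 to 12 HNRNP, 2 to 4 SF3, 0 to 2 SNRP and 39 to 64 listed genes were called, with 39 without DMSO library 2. Calls over all genes then ran from 5282 to 6547, in place of 6332. Where a count moved, the cause was not tested.

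The HNRNP sum differed by a log2 ratio of -0.11 when FPKM was rescaled to TPM and -0.0691 without HNRNPA1, in place of -0.14, the omission being chosen after seeing the data. With FPKM put back on total counts, also added after seeing the data, the log2 ratios were -0.0779 for HNRNP, -0.11 for SRSF (-0.17 as deposited) and 0.19 for SF3. In CPM the SF3 ratio was -0.0148 and the SNRP ratio -0.00136, in place of 0.13 and 0.03, and the SNRP ratio ran from -0.0135 to 0.0639 without single libraries. CPM is not divided by length, so longer genes weigh more in it.

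Signs turned in uncalled genes only. Total-count scaling gave 0.0233 for HNRNPL, 0.0261 for HNRNPA2B1, 0.0282 for HNRNPK, 0.00444 for SNRPA1, 0.0313 for SNRPD1 and 0.0697 for SNRPB. SNRPB was 0.00633 with no filter and 0.01 with limma, SNRPB2 -0.00356 with DESeq2, and SRSF9 -0.00633 with DESeq2 and -0.00301 with its size factors. Without single libraries the ranges were -0.00947 to 0.0411 for SF3B2, -0.0835 to 0.15 for SF3A2, -0.0766 to 0.069 for SNRPB, -0.0186 to 0.0399 for SNRPB2, -0.0577 to 0.0588 for SNRPE and -0.0599 to 0.0786 for SRSF9.

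Deviations of same-numbered libraries correlated at 0.194, 0.0651 and 0.173 over 15116 genes, and each library correlated best with its own number, a hint from the data and not from the design, since 1 pair was under 0.1. With the replicate number as a block, 33 members were called in place of 24, 9 higher and 24 lower, among them 3 SNRP genes. Calls also rose over all 15116 genes tested, to 7689 with the block in place of 6332. Depth limits SNRPN (at most 18 counts) and, less, SRSF12.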
